A study of Mus musculus with 28 samples.

Results

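The mitochondrial protein import machinery was followed across single mouse embryos with and without Ctcf, the gene of the chromatin architecture protein CTCF. The set was chosen by name: genes whose symbol starts with Timm or Tomm, together with Hspd1, Hspe1, Hspa9, Grpel1, Grpel2, Dnajc19, Pam16, Pmpca, Pmpcb, Samm50, Mtx1 and Mtx2, with pseudogenes left out. It held 37 of the 14332 genes present in both deposited tables, and all 37 are annotated as protein coding. The antisense gene Tomm6os is in the morula table alone and was not counted.

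Nearly all mitochondrial proteins are encoded in the nucleus, made in the cytosol and carried into the organelle. The TOM complex is the entry gate of the outer membrane; the SAM complex inserts barrel-shaped proteins there, small TIM chaperones escort hydrophobic proteins through the intermembrane space, and the TIM22 and TIM23 complexes serve the inner membrane. An ATP-driven motor around mtHsp70, the product of Hspa9, pulls precursors into the matrix, where the processing peptidase removes their targeting signal and the chaperonin of Hsp60 and Hsp10, encoded by Hspd1 and Hspe1, folds them. In the preimplantation embryo mitochondria mature as the morula becomes a blastocyst.

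Whole single embryos of the CD1 strain were measured by polyA RNA sequencing. The 14 blastocysts were labelled WT_flfl (3 embryos), het (4), M_KO (4) and MZ_KO (3), and the 13 morulae het (3), del (4) and MZKO (6). The labels do not spell out these codes, name no Cre line, and do not say which embryos share a mother or a day, so p-values measure the spread between these embryos alone. The blastocyst MZ_KO and M_KO embryos share the title prefix C7 and the WT_flfl and het embryos N89, whereas morula MZKO embryos carry C50 and del and het embryos N2; the prefix therefore moves with the genotype except between MZ_KO and M_KO, between het and WT_flfl, and between del and het. All these blastocysts were in sequencing batch 1 and all morulae in batch 2, and stage and batch therefore coincide and cannot be told apart.

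Ctcf itself lay at 2.92 to 4.23 CPM (counts per 1000000 scaled reads) in blastocyst MZ_KO, against 91.6 to 102 in WT_flfl, 55.1 to 78.9 in het and 53.2 to 89.4 in M_KO (exact two-sided permutation p = 0.1 against WT_flfl, the smallest that 3 against 3 embryos allow, and 0.0286 against het and against M_KO). In morulae it lay at 0 to 8.68 CPM in MZKO and 0 to 5.81 in del, against 26.1 to 54.6 in het (exact permutation p = 0.0119 and 0.0286). Blastocyst totals ran from 7377302 to 27883060 reads and morula totals from 12136606 to 20414013, apart from del 6 with 1635553. Morulae MZKO 1 and het 1 stood apart: their median rank correlations with the other morulae across genes were 0.690 and 0.751, against 0.778 to 0.872. Their summed red blood cell RNA was 4082 and 15500 CPM. Their summed oviduct epithelium RNA was 2274 and 1276 CPM, with at most 500 CPM in any other morula. Tests of the main morula members named below are given with and without these embryos. In blastocysts, WT_flfl 1 and het 6 carried 34482 and 31472 CPM of red blood cell RNA. Het 3 carried 11573 CPM, and at most 7544 was found in any MZ_KO or M_KO embryo. The trophectoderm list, 7 of 7 genes present, summed to 3731 to 4917 CPM in MZ_KO, below the 6937 to 7188 of WT_flfl and the 5345 to 9188 of M_KO and overlapping the 4576 to 7332 of het. The inner cell mass list, also 7 of 7, summed to 869 to 1042 CPM in MZ_KO against 483 to 946 in the other groups. Their part in the results below was not tested, and in whole embryos fewer cells of a type and less RNA per cell cannot be told apart. None of the 7 cumulus and granulosa markers is in the blastocyst table, and the oocyte list reached at most 19.1 CPM in a blastocyst.

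Together the 37 import genes took a similar share of the RNA in every blastocyst. Their summed level was 0.709 to 0.811% of scaled reads in MZ_KO, 0.708 to 0.759% in M_KO, 0.680 to 0.733% in WT_flfl and 0.629 to 0.716% in het, and the ranges of all 4 groups overlap. In morulae the sum was 0.616 to 0.845% in 11 embryos and fell outside that range in MZKO 1 (0.387%) and het 1 (0.452%). MZKO 1 held the lowest morula value of 14 of the 37 genes. Per kilobase of exon, the most abundant member in WT_flfl blastocysts was Timm23 at 447 ± 30.2 CPM per kb (SD, n = 3), the pore of the inner membrane, followed by Hspd1 (335 ± 32.2), Tomm5 (225 ± 19.4) and Hspa9 (221 ± 15.3); the last pair did not differ beyond their spread. Tomm40l, an alternative form of the outer membrane pore, was the lowest at 1.70 ± 0.411 CPM per kb, and 64.3% of its exon bases are shared with Nr1i3 on the opposite strand, which this unstranded protocol cannot separate.

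**Figure D1:**
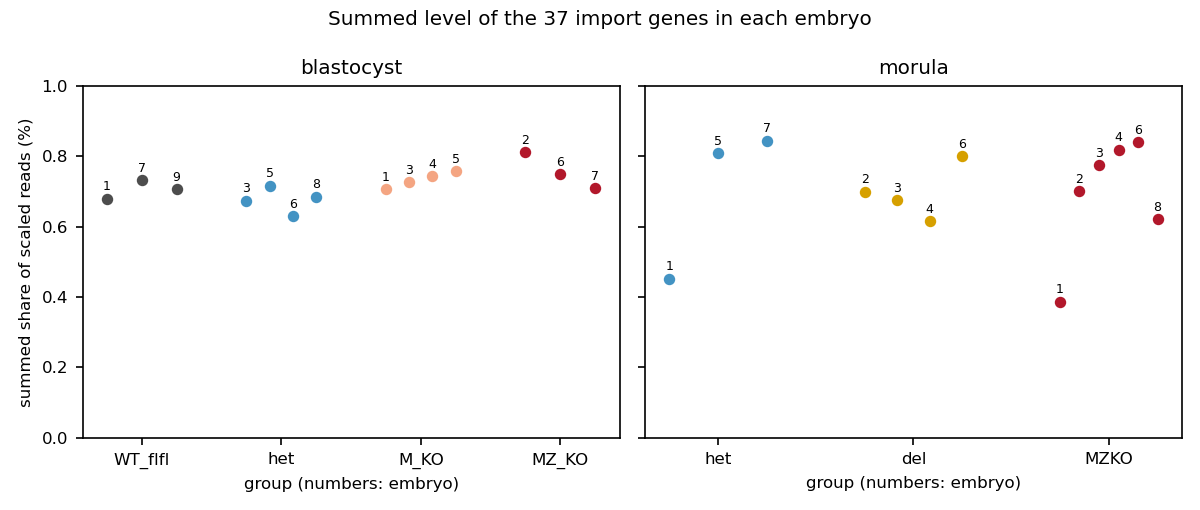
Summed level of the 37 import genes in each embryo, as a percentage of scaled reads, by group for blastocysts (left) and morulae (right); each point is 1 embryo and carries its number. Blastocysts lie between 0.629 and 0.811%, and morulae MZKO 1 (0.387%) and het 1 (0.452%) lie below every other embryo.

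Within that total, individual import genes moved in opposite directions in MZ_KO blastocysts. Genes were tested with limma on log2(CPM + 1), and a gene was called at a Benjamini-Hochberg adjusted p under 0.05 over all genes tested. Of the 37, 36 passed the filter of 10 CPM in 3 embryos at each stage: Timmdc1 failed it in blastocysts and Tomm40l in morulae. Against het, 9 of 36 rose (Tomm5, Tomm20, Tomm22, Timm8a2, Timm10, Timm23, Timm17a, Grpel1 and Grpel2) and 2 fell (Hspd1 and Pmpca), or 30.6%, where 17.9% of all 9585 tested genes were called (7.02% higher and 10.8% lower). Against WT_flfl, 4 rose (Tomm5, Timm23, Timm17a and Grpel2) and the same 2 fell, or 16.7% against 13.2% of all genes (4.84% higher and 8.36% lower), which is near that background. Against M_KO, the contrast inside one title prefix, 2 rose (Tomm5 and Timm17a) and 3 fell (Hspd1, Hspe1 and Pmpca), or 13.9% against 11.8% of all genes (3.74% higher and 8.09% lower), again near the background. The median log2 fold change of the members was 0.30, 0.16 and 0.12 in these comparisons, against -0.06, -0.05 and -0.03 over all genes. Tomm5, Timm17a, Hspd1 and Pmpca were called in all 3 comparisons, which share the MZ_KO embryos. Without WT_flfl 1 and het 6, the embryos with most red blood cell RNA, 5 members were called against het and 2 against WT_flfl. Leaving out 1 embryo also moved the counts by over 1.5 times: against WT_flfl to 2 without MZ_KO 2 or WT_flfl 1 and to 3 without WT_flfl 9; against het to 5 without MZ_KO 2 or het 6 and to 7 without het 3; and against M_KO to 3 without MZ_KO 7, M_KO 1, M_KO 4 or M_KO 5. With each embryo centred on its median gene, 13 rose and 1 fell against het, 7 rose and 1 fell against WT_flfl, and 2 rose and 2 fell against M_KO.

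**Figure D2:**
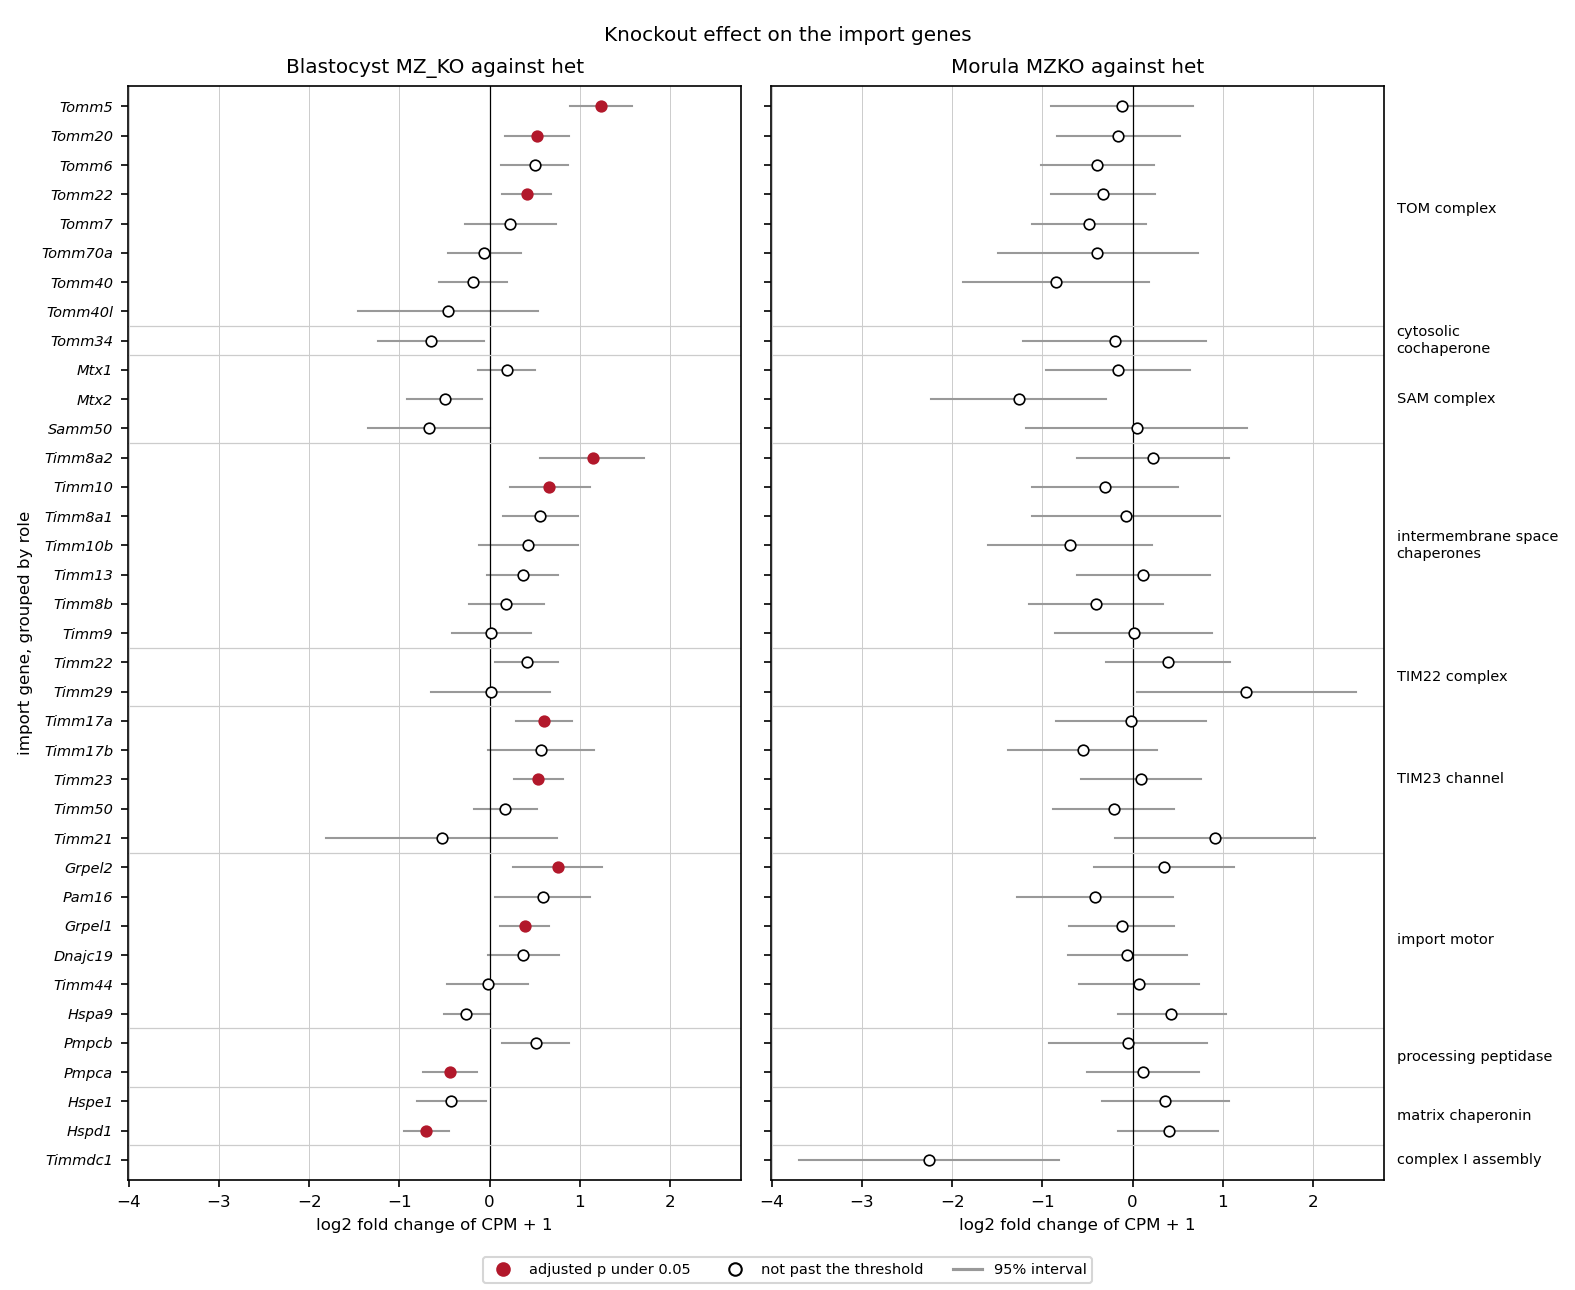
Log2 fold change of CPM + 1 for each import gene, blastocyst MZ_KO against het (left) and morula MZKO against het (right), with its 95% interval; rows are ordered by role and filled points passed an adjusted p of 0.05. In blastocysts 9 genes passed to the right of 0 and 2 to the left, Tomm5 at 1.23 and Hspd1 at -0.70; in morulae 0 passed.

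At the outer membrane gate, Tomm5 had the greatest rise of the members in each MZ_KO comparison. Tomm5 is the gene of a small subunit that helps assemble and hold the TOM pore, and lies on GRCm38 chromosome 4 from 45105208 to 45108114 on the minus strand. Its level was 516, 337 and 403 CPM in MZ_KO embryos 2, 6 and 7. It was 209, 250, 241 and 277 CPM in M_KO embryos 1, 3, 4 and 5. WT_flfl embryos 1, 7 and 9 read 204, 206 and 176 CPM, and het embryos 3, 5, 6 and 8 read 172, 203, 146 and 182. Every MZ_KO embryo was above every embryo of the other groups, and M_KO stood between MZ_KO and the N89 embryos without overlapping either group. The log2 fold change of MZ_KO was 1.23 against het (SE 0.16, adjusted p = 1.14e-04), 1.08 against WT_flfl (SE 0.18, adjusted p = 8.46e-04) and 0.76 against M_KO (SE 0.16, adjusted p = 0.00658). These calls were kept with any 1 embryo left out, with adjusted p at most 0.0430. The step from het to M_KO was 0.47 (95% interval 0.15 to 0.80) and had an unadjusted p of 0.00624 but an adjusted p of 0.685.

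The promoter of Tomm5 is shown because Tomm5 rose in all 3 MZ_KO comparisons and because its window was the sole one of 35 member windows to hold the letters of the CTCF core. The window runs 250 bases before to 50 bases after the start site, from RefSeq (GRCm38.p6), at chr4:45108064-45108363 on the minus strand. The letters searched, on both strands, were CCNNNAG followed after any 2 bases by GGC. Capitals mark the match, on the opposite strand at bases -109 to -98 from the start. The same letters are in 2.86% of member windows and 8.61% of all 32851 RefSeq promoter windows. In windows of protein-coding genes the share is 9.88%, so the letters are not more frequent among the members. No binding was measured here, and a match of letters is not a bound site.
Tomm5: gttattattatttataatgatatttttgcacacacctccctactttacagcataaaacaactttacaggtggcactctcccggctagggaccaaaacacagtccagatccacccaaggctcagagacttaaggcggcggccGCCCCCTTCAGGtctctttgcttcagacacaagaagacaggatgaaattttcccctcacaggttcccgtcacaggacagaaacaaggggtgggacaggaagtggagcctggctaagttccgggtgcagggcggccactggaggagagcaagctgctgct

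The other TOM subunits spread to both sides of 0. Tomm20, the receptor for cleavable targeting signals, read 499, 382 and 326 CPM in MZ_KO, above the 200 to 313 of het, the 257 to 293 of WT_flfl and the 287 to 300 of M_KO. It rose against het (log2 fold change 0.53, SE 0.17, adjusted p = 0.0386); against WT_flfl the change was also 0.53 (adjusted p = 0.0629) and against M_KO 0.44 (adjusted p = 0.104). The call against het was lost without MZ_KO 2 (adjusted p = 0.197), MZ_KO 6 (0.0778) or het 6 (0.111), and het 6 is the het embryo at 200 CPM. Tomm22, the central receptor that joins the pores, read 314, 289 and 278 CPM in MZ_KO and 217 to 229 in het, with 236 to 259 in WT_flfl and 209 to 284 in M_KO. It rose against het by 0.41 (SE 0.13, adjusted p = 0.0367), and no fit with 1 of the 7 embryos left out kept that call: MZ_KO 2 (0.121), MZ_KO 6 (0.0807), MZ_KO 7 (0.0514), het 3 (0.0663), het 5 (0.0554), het 6 (0.0752) or het 8 (0.0579). Tomm6, another small subunit, had log2 fold changes of 0.50 against het and 0.52 against WT_flfl without passing the threshold (adjusted p = 0.0588 and 0.0759), and 76.0% of its exon bases are shared with the overlapping gene Gm21981. Tomm40, the pore itself, was at -0.19 against het (adjusted p = 0.496), and Tomm70a, the receptor for carrier proteins, at -0.06 (adjusted p = 0.866). Tomm34, a cytosolic cochaperone of precursors, was at -0.65 against het (adjusted p = 0.118).

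**Figure D3:**
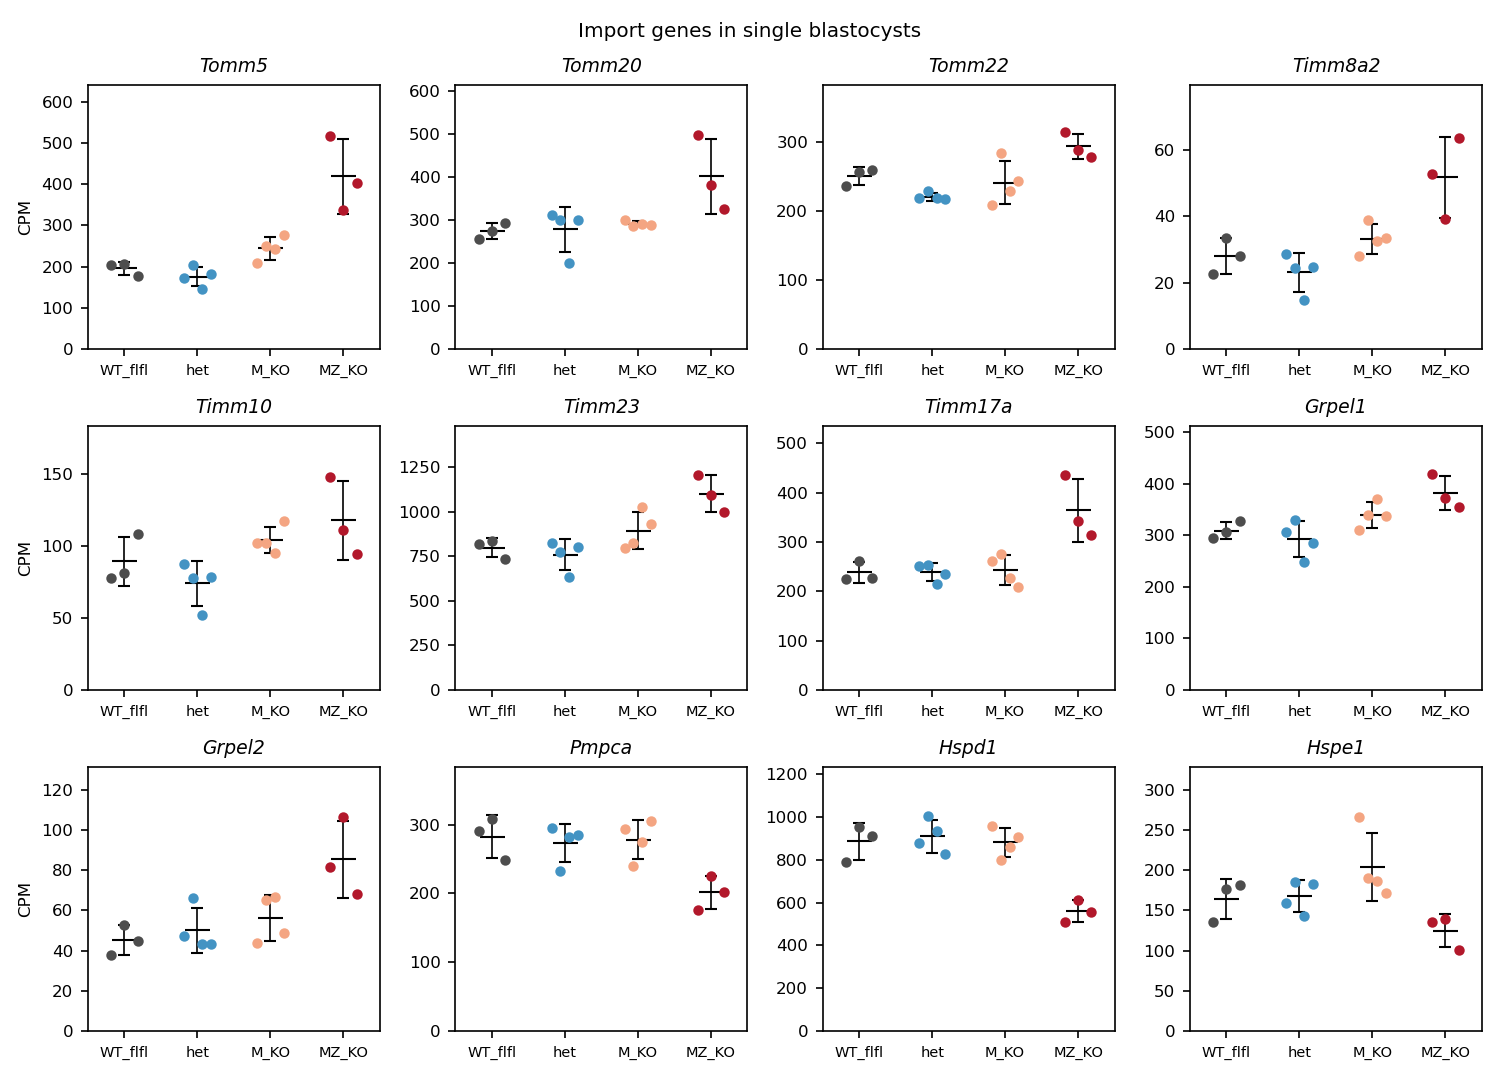
CPM of the 12 import genes called in at least 1 comparison, in each of the 14 blastocysts; points are embryos, horizontal marks means and bars ± 1 SD, and axes start at 0. In the Tomm5 panel the 3 MZ_KO embryos (337 to 516) lie above all others, and in the Hspd1 panel (508 to 611) below all others.

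None of the 3 SAM genes passed. Samm50, the insertion channel, was at 20.1 to 43.8 CPM in MZ_KO and 28.3 to 57.8 in het (log2 fold change -0.67, adjusted p = 0.157), Mtx2, a metaxin that binds the channel, was at -0.50 (adjusted p = 0.0910) and Mtx1 at 0.19 (adjusted p = 0.422).

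All 7 intermembrane space chaperones had positive log2 fold changes against het and against WT_flfl, and 2 passed against het. Against M_KO 5 were positive and 2 negative, down to -0.30, and none passed. M_KO itself was positive for 7 of 7 against het and 6 of 7 against WT_flfl, again with none called. Timm8a2, a member of the small TIM family whose reads may in part be shared with its copy Timm8a1, read 52.8, 39.2 and 63.5 CPM in MZ_KO. Het embryos read 28.8, 24.5, 14.9 and 24.7 CPM, WT_flfl 22.5 to 33.3 and M_KO 27.9 to 38.8 CPM, so that MZ_KO lay above all of them, narrowly over M_KO 3 (38.8). Timm8a2 rose against het by 1.14 (SE 0.27, adjusted p = 0.00882), a call kept with any 1 embryo left out, and stood at 0.86 against WT_flfl (adjusted p = 0.0607). Timm10, which forms a ring with Timm9 that carries hydrophobic proteins, read 148, 111 and 94.2 CPM in MZ_KO and 87.6, 77.7, 51.8 and 78.6 in het. It rose against het by 0.66 (SE 0.21, adjusted p = 0.0377). The call did not hold with 1 embryo left out where that was MZ_KO 2 (0.178), MZ_KO 6 (0.0747), het 5 (0.0555) or het 6 (0.114). Its partner Timm9 was at 0.02 (adjusted p = 0.955), and Timm10 values in WT_flfl (77.7 to 108) and M_KO (94.8 to 117) overlapped those of MZ_KO. In the TIM22 complex, which inserts carrier proteins, Timm22 was at 0.41 (adjusted p = 0.0958) and Timm29 at 0.01 (adjusted p = 0.984) against het.

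In the TIM23 channel, Timm23 was called against het and WT_flfl and Timm17a in all 3 comparisons. Timm23 read 1206, 1093 and 999 CPM in MZ_KO embryos 2, 6 and 7. It read 826, 771, 632 and 799 CPM in het, 821, 836 and 736 in WT_flfl, and 797 to 1024 in M_KO. MZ_KO was above het and WT_flfl, and overlapped M_KO through M_KO 4 (1024). Timm23 rose by 0.54 against het (SE 0.13, adjusted p = 0.00819), which held with any 1 embryo left out. It rose by 0.46 against WT_flfl (SE 0.14, adjusted p = 0.0343), which was lost without MZ_KO 2 (0.121), MZ_KO 6 (0.0775), WT_flfl 1 (0.0690), WT_flfl 7 (0.0663) or WT_flfl 9 (0.114).

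Timm17a, the channel subunit that pairs with Timm23, read 436, 343 and 314 CPM in MZ_KO, above the 214 to 253 of het, the 226 to 262 of WT_flfl and the 210 to 276 of M_KO. It rose by 0.60 against het (SE 0.15, adjusted p = 0.0104), 0.60 against WT_flfl (SE 0.16, adjusted p = 0.0191) and 0.57 against M_KO (SE 0.15, adjusted p = 0.0191). Without MZ_KO 2, the embryo at 436 CPM, none of the 3 calls held (adjusted p = 0.0645, 0.0892 and 0.101). The call against WT_flfl was also lost without WT_flfl 1 (0.0674) or WT_flfl 9 (0.0606), and that against M_KO without M_KO 4 (0.0509) or M_KO 5 (0.0517). The paralogue Timm17b was at 0.57 against het with wide spread (SE 0.28, adjusted p = 0.167), Timm50, the receptor of the channel, at 0.17 (adjusted p = 0.501), and Timm21, at 2.09 to 20.8 CPM, at -0.53 (SE 0.61, adjusted p = 0.586).

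Around the import motor, the nucleotide exchange factor genes Grpel2 and Grpel1 were called in 2 and 1 of the 3 comparisons, and no motor gene was called against M_KO. Grpel2 read 81.6, 106 and 68.1 CPM in MZ_KO, with 43.1 to 66.2 in het, 37.9 to 52.7 in WT_flfl and 43.8 to 66.6 in M_KO. It rose by 0.76 against het (SE 0.23, adjusted p = 0.0344) and 0.89 against WT_flfl (SE 0.25, adjusted p = 0.0268). The call against het was lost without MZ_KO 2 (0.0791), MZ_KO 6 (0.151), het 3 (0.0634), het 6 (0.0891) or het 8 (0.0684), and that against WT_flfl without MZ_KO 2 (0.0609), MZ_KO 6 (0.107), WT_flfl 1 (0.100) or WT_flfl 9 (0.0638). Its relative Grpel1 read 419, 372 and 355 CPM in MZ_KO and 307, 329, 248 and 284 in het. It read 295 to 327 CPM in WT_flfl and 310 to 370 in M_KO, which overlapped MZ_KO. Grpel1 rose by 0.39 against het (SE 0.13, adjusted p = 0.0448) and kept the call in 1 of 7 leave-outs; it was lost without MZ_KO 2 (0.158), MZ_KO 6 (0.0899), MZ_KO 7 (0.0522), het 3 (0.0570), het 6 (0.126) or het 8 (0.0699). Hspa9 read 652, 759 and 804 CPM in MZ_KO against 884 to 1015 in WT_flfl, 849 to 1037 in M_KO and 781 to 971 in het. Its log2 fold changes were -0.37, -0.34 and -0.26 (adjusted p = 0.0707, 0.0856 and 0.161), and MZ_KO overlapped het alone. Pam16 and Dnajc19, the J-type regulators of the motor, were at 0.59 and 0.37 against het (adjusted p = 0.115 and 0.174), and Timm44, the tether, at -0.02 (adjusted p = 0.958).

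Of the matrix processing peptidase genes, Pmpca was called in all 3 comparisons and Pmpcb in none. Pmpca, the substrate-binding subunit, read 176, 225 and 203 CPM in MZ_KO, below the 233 to 295 of het, the 248 to 308 of WT_flfl and the 239 to 305 of M_KO. It fell by 0.44 against het (SE 0.14, adjusted p = 0.0424), fell by 0.49 against WT_flfl (SE 0.15, adjusted p = 0.0449) and fell by 0.46 against M_KO (SE 0.14, adjusted p = 0.0445). Each call was lost in most leave-outs, without MZ_KO 2 (0.166, 0.157 and 0.172) and without MZ_KO 7 (0.0785, 0.0788 and 0.0860). Against het it was also lost without het 3 (0.0944), het 6 (0.0918) or het 8 (0.0729), against WT_flfl without WT_flfl 1 (0.118) or WT_flfl 7 (0.155), and against M_KO without M_KO 1 (0.104), M_KO 4 (0.0826) or M_KO 5 (0.101). With each embryo centred on its median gene none of the 3 Pmpca calls held (adjusted p = 0.115, 0.0947 and 0.0913). Of the Pmpca exon bases, 20.4% overlap Inpp5e on the other strand. Pmpcb, the catalytic subunit, read 205, 137 and 207 CPM in MZ_KO against 120 to 132 in het, a change of 0.51 that missed the threshold (SE 0.17, adjusted p = 0.0539).

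Of the chaperonin genes, Hspd1 was called lower in MZ_KO in all 3 comparisons and Hspe1 in 1 of them. Hspd1 read 508, 611 and 557 CPM in MZ_KO embryos 2, 6 and 7. It read 959, 797, 861 and 907 CPM in M_KO, 790, 954 and 912 in WT_flfl, and 878, 1005, 932 and 825 in het. All 11 embryos of the other groups lay between 790 and 1005 CPM and no group among them stood out. Hspd1 fell by 0.70 against het (SE 0.12, adjusted p = 8.67e-04), fell by 0.66 against WT_flfl (SE 0.13, adjusted p = 0.00269) and fell by 0.66 against M_KO (SE 0.12, adjusted p = 0.00196). The mean of MZ_KO was 61.4, 63.1 and 63.4% of these groups, and the calls held with any 1 embryo left out (adjusted p at most 0.0183). Its partner Hspe1 read 135, 139 and 101 CPM in MZ_KO and 266, 191, 186 and 172 in M_KO, and fell against M_KO by 0.69 (SE 0.18, adjusted p = 0.0214). That call did not hold with MZ_KO 7 (0.0940) or M_KO 1 (0.0702) left out. Against het (143 to 185 CPM) the change of Hspe1 was -0.43 (adjusted p = 0.119), and against WT_flfl (135 to 181 CPM) -0.39 (adjusted p = 0.198).

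Hspd1 and Hspe1 lie head to head on chromosome 1, Hspd1 from 55077835 to 55088243 on the minus strand and Hspe1 from 55088132 to 55091307 on the plus strand, and their exons overlap by 112 bases. One RefSeq window of Hspd1, chr1:55087883-55088182, shares 285 of 300 bases with the Hspe1 window, which is shown for that overlap. The other Hspd1 window, chr1:55088194-55088493, covers the Hspd1 gene end at 55088243. That other window shares 4 bases with the Hspe1 window and held no match to the heat shock letters below. The Hspe1 window, chr1:55087898-55088197 on the plus strand (GRCm38.p6), holds a pair of overlapping matches to the heat shock element, searched on both strands as GAA, TTC and GAA with any 2 bases between neighbours. Capitals mark them, at bases -89 to -72 from the Hspe1 start. These letters were in 3 of 35 member windows (Hspd1, Hspe1 and Timm9) and in 0.603% of all 32851 windows. The Hspd1 and Hspe1 matches are the same bases, counted in both overlapping windows, so the member windows are not separate counts. No binding was measured, and a match of letters is not a bound site.
Hspe1: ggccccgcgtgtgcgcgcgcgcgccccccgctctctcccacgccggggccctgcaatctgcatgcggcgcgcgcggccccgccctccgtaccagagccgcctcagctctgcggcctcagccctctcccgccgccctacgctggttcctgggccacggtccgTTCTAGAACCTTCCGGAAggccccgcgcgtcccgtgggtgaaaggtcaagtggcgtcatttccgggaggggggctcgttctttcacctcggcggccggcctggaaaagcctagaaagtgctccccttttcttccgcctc
Windows were found for 32 members, as 35 windows, and Grpel2, Hspa9, Timm21, Tomm7 and Tomm40l had none. The ETS family letters CCGGAAG, searched on both strands, were in 18 of the 35 windows, against 8.86% of all windows and 11.6% of 21262 windows of protein-coding genes. They occurred in genes that rose (Tomm22, Timm8a2, Timm10, Timm23 and Grpel1), in genes that fell (Hspd1, Hspe1 and Pmpca), and in 9 others. Within the Hspe1 window the ETS letters overlap the heat shock letters, and the Hspd1 ETS matches are these same bases, counted in both windows. The remaining letters searched were GCGC and TGCGC with any 1 base between them for NRF1 (4 of 35 windows, 4.6% of all), AAGATGGCG for YY1 (2, 1.4%), TTTCCCGC for E2F (2, 1.07%) and TCAAGGTCA for ERR (1, 0.423%).

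In blastocysts that kept Ctcf RNA, no import gene was called. M_KO against WT_flfl, M_KO against het and het against WT_flfl gave 0 of 36 members each with limma, where 0% of all genes were called. At an unadjusted p under 0.05 the counts were 0, 3 and 0 members, the 3 being Tomm5 (0.47), Timm10 (0.51) and Timm13 (0.42) in M_KO against het. For Hspd1 the log2 difference between M_KO and het was -0.05 (95% interval -0.28 to 0.18) and between M_KO and WT_flfl -0.01 (95% interval -0.26 to 0.24). Between het and WT_flfl Tomm5 differed by -0.16 (95% interval -0.50 to 0.19) and Hspd1 by 0.04 (95% interval -0.21 to 0.29).

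In morulae the same genes showed no called change. Limma called 0 of 36 members in MZKO against het, where 0.482% of 9953 tested genes were called, 0 in MZKO against del (0.181%) and 0 in del against het (0.0100%). At an unadjusted p under 0.05 there were 3, 2 and 0 members. Tomm5 read 104, 292, 223, 353, 351 and 288 CPM in MZKO embryos 1, 2, 3, 4, 6 and 8, with a median of 290. The del embryos read 298, 348, 164 and 243 CPM, and het embryos 1, 5 and 7 read 159, 310 and 408, so the groups overlapped throughout. Its log2 difference between MZKO and het was -0.12 (95% interval -0.91 to 0.67), a wider interval than that in blastocysts (0.89 to 1.58). Hspd1 read 324, 597, 538, 633, 568 and 660 CPM in MZKO, 452, 419, 387 and 289 in del, and 318, 436 and 495 in het. Apart from MZKO 1, every MZKO morula was above every del and het morula, which is the reverse of the order in blastocysts. The log2 difference was 0.40 against het (95% interval -0.16 to 0.95, adjusted p = 0.741) and 0.50 against del (adjusted p = 0.614). Without MZKO 1 and het 1 the Hspd1 difference with limma was 0.36 against het (adjusted p = 0.478). Against del it was then 0.65 (SE 0.17, unadjusted p = 0.00167, adjusted p = 0.179). The Tomm5 difference against het was then -0.26 (adjusted p = 0.730).

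**Figure D4:**
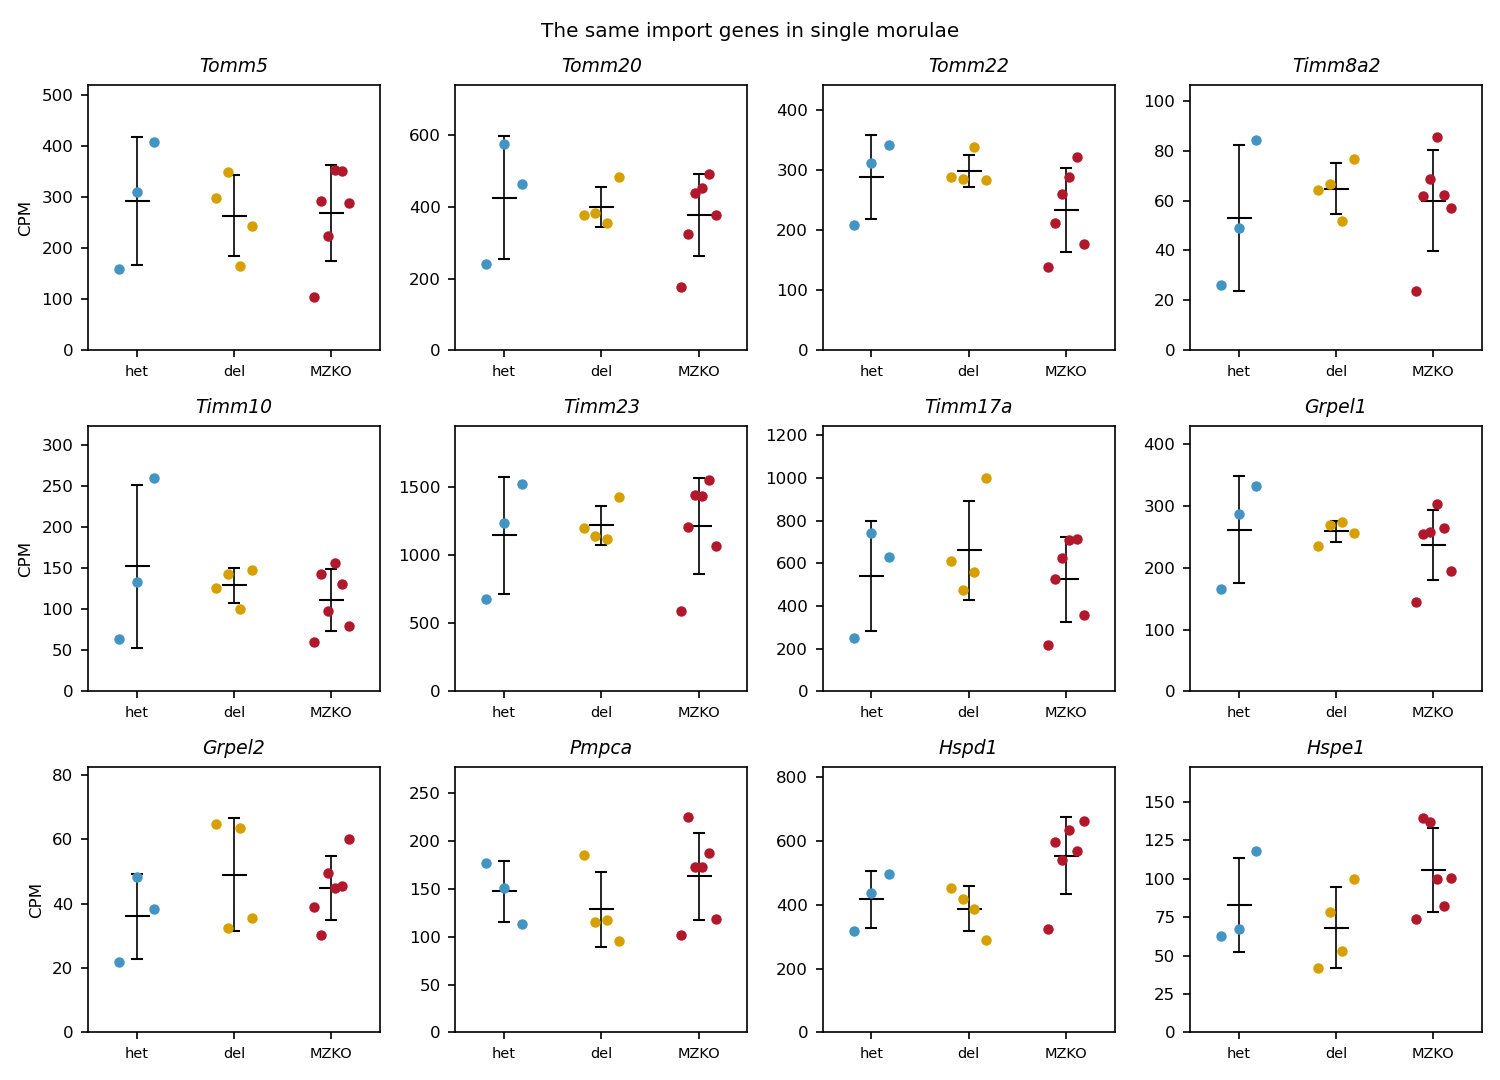
CPM of the same 12 genes in each of the 13 morulae; points are embryos, horizontal marks means and bars ± 1 SD, and axes start at 0. The groups overlap in the Tomm5 panel, and in the Hspd1 panel 5 of 6 MZKO embryos (538 to 660) lie above all del and het embryos.

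With all embryos kept, the greatest log2 differences between MZKO and het morulae among members tested were those of Timmdc1, Mtx2 and Timm29. Timmdc1, which matches by its symbol and encodes an assembly factor of respiratory complex I, read 9.17, 3.04, 0.704, 0.626, 5.59 and 2.92 CPM in MZKO. The del embryos read 24.6, 13.1, 15.5 and 31.4 CPM and het embryos 14.8, 17.2 and 19.5, with no overlap with MZKO. Its log2 fold change was -2.26 against het (SE 0.69, unadjusted p = 0.00399, adjusted p = 0.223) and -2.47 against del (SE 0.63, unadjusted p = 9.22e-04, adjusted p = 0.195). In blastocysts Timmdc1 lay at 2.66 to 8.63 CPM in every group. Mtx2 read 14.9 to 41.9 CPM in MZKO and 29.2 to 101 in het (log2 fold change -1.26, adjusted p = 0.375), and Timm29 9.55 to 29.0 in MZKO and 2.73 to 8.65 in het (1.26, adjusted p = 0.552). Without MZKO 1 and het 1 the morula counts of called members were again 0 in all 3 comparisons, where 0.553% of all genes were called in MZKO against het, 0.191% in MZKO against del and 0.0402% in del against het. Timmdc1 then stood at -2.64 in MZKO against het and -2.75 against del (limma, adjusted p = 0.126 and 0.0942). Mtx2 stood at -1.80 and Timm29 at 1.63 in MZKO against het (adjusted p = 0.107 and 0.277). Tomm40, the outer membrane pore, then stood at -1.47 in MZKO against het (SE 0.42, unadjusted p = 0.00272, adjusted p = 0.121) and -1.34 in del against het (adjusted p = 0.462). With all morulae kept its values were -0.85 and -0.57. The 2 het morulae left read 264 and 281 CPM and het 1 53.5, where MZKO read 51.4 to 174 and del 60.1 to 137. The members' median log2 fold change in MZKO against het went from -0.10 to -0.26, with all genes at -0.02 and -0.03.

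Import genes were tested for a stage difference as the blastocyst effect (MZ_KO minus het) minus the morula effect (MZKO minus het). The test took in 8572 genes, and 35 members, that passed at both stages. Stage, sequencing batch and table coincide in this contrast, and genotype moves with the title prefix on both of its sides. The del morulae, also low in Ctcf, share the prefix N2 with het and are not compared in it. Between del and het the Hspd1 log2 difference was -0.10 (limma, adjusted p = 0.999). Of the members 1 was called, where 1.61% of all genes were (0.630% higher and 0.980% lower): Hspd1, with a difference of -1.10, lower in blastocysts (SE 0.29, 95% interval -1.69 to -0.51, adjusted p = 0.0443). This call is fragile, since it held in 2 of 16 fits that left out 1 embryo, without morula MZKO 1 or morula het 1. In the others the adjusted p rose to between 0.0505 (without blastocyst het 8) and 0.117 (without blastocyst MZ_KO 2). Tomm5 differed by 1.36 (SE 0.45, adjusted p = 0.107). The median over members was 0.45, against 0.01 over all genes.

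With morulae MZKO 1 and het 1 left out, a choice made after seeing the data, 7 of 35 members were called, or 5 higher and 2 lower, where 8.88% of all genes were called, 5.28% higher and 3.59% lower. The effect was higher in blastocysts for Tomm5 (1.49, SE 0.32, adjusted p = 0.00635), Timm10 (1.32, adjusted p = 0.0306), Tomm6 (1.08, adjusted p = 0.0354), Tomm20 (0.85, adjusted p = 0.0450) and Tomm22 (0.81, adjusted p = 0.0403). It was lower for Hspd1 (-1.07, SE 0.22, adjusted p = 0.00400) and Hspa9 (-0.84, adjusted p = 0.0471). Without het 1 alone, 4 members were called, Tomm5 among them (adjusted p = 0.0167). Of the 5 with the higher effect, 4 are TOM subunits, as are 7 of the 35 members tested. The contrast also takes in the morula side, where het embryos 5 and 7 alone remained. There Tomm6, Tomm22, Tomm20 and Tomm5 stood at -0.58, -0.41, -0.32 and -0.26 in MZKO against het, with none called. Tomm6 was not called in any blastocyst comparison. The members' median was 0.67 against 0.04 over all genes. In the levels, read from separately scaled tables, Hspd1 in het embryos was 318 to 495 CPM in morulae and 825 to 1005 in blastocysts, and Timm17a 251 to 743 and 214 to 253.

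Beyond these 37, a list of 36 other genes of import, sorting and mitochondrial protein quality control held more called decreases than called increases in MZ_KO blastocysts. Of the 34 tested, 1 rose and 9 fell against het, 1 rose and 8 fell against WT_flfl, and 0 rose and 10 fell against M_KO, which is 29.4, 26.5 and 29.4% called in either direction, where 17.9, 13.2 and 11.8% of all genes were. Those called lower were 26.5, 23.5 and 29.4% of the list, against 10.8, 8.36 and 8.09% of all genes, and most of the list was not called. The list was chosen with earlier results of these data known, so these shares describe it and do not test it. The median log2 fold changes were -0.32, -0.24 and -0.27. The count against M_KO dropped to 6 without M_KO 1 or M_KO 4. Dnajc11, a J protein tied to SAM and the cristae-organizing complex, fell from 270 ± 32.1 CPM in het (SD, n = 4) to 109 ± 28.8 in MZ_KO (SD, n = 3), a log2 fold change of -1.32 (SE 0.16, adjusted p = 5.10e-05 with limma). Mipep, the intermediate peptidase that trims precursors after Pmpca and Pmpcb, fell from 49.98 ± 18.1 to 10.99 ± 7.92 CPM, a log2 fold change of -2.22 (SE 0.37, adjusted p = 8.17e-04). Chchd4, the import receptor of the disulfide relay that small TIM proteins need, fell from 133 ± 22.4 to 60.3 ± 15.7 CPM, a log2 fold change of -1.14 (SE 0.22, adjusted p = 0.00239). Oxa1l, the inner membrane insertase, fell by 0.83 (SE 0.18, adjusted p = 0.00518), the matrix chaperone Trap1 fell by 0.78 (SE 0.15, adjusted p = 0.00245) and the protease subunit Spg7 fell by 1.47 (SE 0.31, adjusted p = 0.00429). Dnajc11, Mipep, Chchd4, Oxa1l and Trap1 were also called lower against WT_flfl and M_KO. Against WT_flfl, Oxa1l lost its call without WT_flfl 7 (0.0713), and Trap1 without MZ_KO 2 (0.0846), MZ_KO 6 (0.0923), MZ_KO 7 (0.0703), WT_flfl 7 (0.177) or WT_flfl 9 (0.0838). Spg7 was called against WT_flfl (-1.61, adjusted p = 0.00486) but not against M_KO (-0.82, adjusted p = 0.104). The gene that rose was Dnajc15, a motor J protein, named after its values were seen. In M_KO against WT_flfl or het, het against WT_flfl, and the 3 morula comparisons, limma called 0 of these genes.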

How the data were processed

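Whole single mouse embryos were profiled by polyA RNA sequencing with the SMART-Seq Ultra Low Input kit, which keeps no strand, on a HiSeq 2500, per the labels' protocols. The submitters' processing notes name cutadapt 1.14, Bowtie2 2.2.9, RSEM 1.3.1 and the builds GRCm38 and mm10, without roles or order; RSEM can divide the reads of genes that resemble each other closely. For each stage the authors deposited a table of log2 values per gene; tested on the tables, these are log2 CPM with an offset of 0.5 reads, and 100% of values gave whole reads within 0.005, so CPM and read totals were recovered. The scaled library sizes were 0.935 to 1.17 times the read totals.

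Testing was limited to genes that reached 10 CPM in 3 or more embryos of their stage. It used limma 3.58.1 (R 4.3.3) on log2(CPM + 1), with trended moderated variance, two-sided, all groups of a stage in one fit and Benjamini-Hochberg adjustment over all tested genes. A fold change on this scale understates changes of low genes. Symbols and exons came from GENCODE M21 (GRCm38) and promoters from RefSeq. The fit was also run on simulated counts with the same spread setting for every gene and no outlying embryos. That run therefore does not measure its error rates on these embryos. Of 28 samples, 27 have a table column; the repeat library of blastocyst het 3 was not analysed here, and 3 entries of the blastocyst table that are not genes were left out. Embryo numbers were not used as a block.

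The members and lists were chosen with earlier results of these data known. Blastocyst values are given for every member called in any comparison, per embryo in MZ_KO and per embryo or as ranges in the other groups. Per-embryo morula values are given for Tomm5, Hspd1 and Timmdc1. Values of the other import genes are given for the 6 with the lowest adjusted p. Alternatives covered the pseudocount, filter, scaling, fit, variance model, each embryo left out and the 2 blastocysts richest in red blood cell RNA. Leaving out morulae MZKO 1 and het 1 was added after seeing the data. For oviduct epithelium markers, blastocyst het 6 summed to 524 CPM and every other blastocyst to at most 139. Morulae MZKO 1 and het 1 summed to 2274 and 1276 CPM, and every other morula to at most 500. In morulae the oocyte list (7 of 7 genes present) reached at most 91.1 CPM and the cumulus and granulosa list (2 of 7) at most 11.5. Trophectoderm (6 of 7 genes present) was at 237 to 1272 CPM and inner cell mass (7 of 7) at 621 to 1294 in morulae.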

Additional observations from a re-analysis of the deposited data

Results flagged for a closer look

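For the 12 genes called in any comparison, 48 groups of 4 to 6 embryos were checked. Of these groups, 4 held an embryo far from the rest by Dixon's criterion, where chance alone marks about 1 in 20. Hspd1 in morula MZKO 1 was 324 CPM, with the other 5 MZKO embryos at 538 to 660. Tomm20 in blastocyst het 6 was 200.2 CPM, with the others at 301 to 313. Tomm22 was 229 CPM in blastocyst het 5, with the others at 217 to 218, and 338 CPM in morula del 4, with the others at 283 to 288.

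The Hspd1 difference of MZ_KO blastocysts from het, minus that of MZKO morulae from het, was -1.10 on the log2 scale (limma, adjusted p = 0.0443). This contrast was tested directly and its call was lost in most leave-outs. Stage and sequencing batch cannot be told apart in it, nor can genotype and title prefix.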

How the results depend on the processing

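The count of called members against WT_flfl in blastocyst MZ_KO (6) became 3 with a robust fit without the variance trend and 2 without WT_flfl 1 and het 6, and ranged from 2 to 7 with 1 embryo left out. Against het (11) it became 7 without the filter, 5 with the compared groups alone in the fit, 6 with that robust fit and 5 without WT_flfl 1 and het 6, and ranged from 5 to 11. Against M_KO (5) it became 3 with the compared groups alone and 2 with the robust fit, and ranged from 3 to 6. The stage contrast (1) became 0 without the filter, centred on the median gene, with the compared groups alone and with the robust fit, 7 without morulae MZKO 1 and het 1, and ranged from 0 to 4. The other comparisons kept 0 members called in all alternatives run. The other import genes called became 5 against WT_flfl (9) and 6 against M_KO (10) with the compared groups alone, and ranged from 6 to 8 against WT_flfl, 8 to 11 against het (10) and 6 to 9 against M_KO. Of 801 alternative values for 53 single-gene results, 669 kept their call and direction, 130 lost a call, 2 gained one (Tomm5 in the stage contrast) and 0 changed sign on a call. Tomm5 and Hspd1 kept all 3 MZ_KO calls throughout, and Timm23 and Timm8a2 theirs against het. Correlations between samples with the same number were -0.14 and -0.12 in M_KO against het and -0.12 to 0.14 in MZKO against del. In MZKO against del, numbers 2 and 6 correlated best with their own number. So few shared numbers cannot tell whether the numbers pair embryos. With the replicate block 0 members were called in either comparison. Depth limits Timmdc1, Timm21 and Tomm40l, at a few CPM, and del 6.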
